A study of Mus musculus with 20 samples.

Results

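The 9 genes described here encode matrix and fibroblast products of the leptomeninges, the thin membranes that cover the brain. They were Ogn, Fmod, Dcn, Bgn, Lum, Foxc1, Islr, Igf2 and Slc22a6, or 9 of the 18193 genes that had a probe set listed with exactly 1 gene symbol. A probe set is the group of short probes that reads 1 transcript, and the 9 genes were read by 21 of the 45037 probe sets. For each gene the brightest probe set, judged by its mean over all mice, was used, and the others served as a check. Of the 9 genes, 8 passed the filter on low values, which kept the 16995 probe sets with an intensity of at least 100 in at least 2 of the 20 mice. Slc22a6 did not pass.

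RNA came from the hippocampus of 20 male mice, each read on its own Affymetrix 430 2.0 array. The 5 groups of 4 mice were young wild-type (WT_Y) and young Hsd11b1-/- (KO_Y) mice of 6 months, and aged Hsd11b1-/- (KO_A), aged memory-unimpaired wild-type (WT_AU) and aged memory-impaired wild-type (WT_AI) mice of 24 months. Wild-type mice were C57BL/6J, and Hsd11b1-/- mice, which lack the glucocorticoid-regenerating enzyme 11β-HSD1 in all tissues, were congenic on that strain. All had been tested for spatial memory in the Y-maze before they were culled, and this test divided the aged wild-type mice, which are also pooled as WT_A (n = 8). Hsd11b1 itself, the gene deleted, read 549.6 to 804.2 (chip intensity) in wild-type mice and 39.5 to 65.2 in Hsd11b1-/- mice.

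Small leucine-rich proteoglycans are secreted proteins that bind collagen fibrils and set their spacing and thickness. Ogn, Dcn, Bgn, Fmod and Lum belong to this family. In the brain they come mainly from fibroblasts of the pia, the arachnoid and the perivascular spaces. Their level in a dissected hippocampus can vary with how much membrane stays attached, which was not measured here. In bulk tissue, fewer fibroblasts and less RNA per fibroblast cannot be told apart.

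The stretches before the start sites of the genes differ widely in base composition. RefSeq promoter sequence of the build GRCm38.p6 was matched by symbol for 7 of the 9 genes, while Dcn and Lum had no entry. The 250 bases before the start are shown for 3 proteoglycan genes, because the levels of Ogn and Fmod were the most alike of any pair and Bgn was the least variable gene. Ogn lies on the plus strand at chr13:49607765-49608014, Fmod on the plus strand at chr1:134037004-134037253, and Bgn on the plus strand at chrX:73483351-73483600. Capitals mark matches on either strand to the TATA box (TATAAA), the CCAAT box (CCAAT), the GC box (GGGCGG), the forkhead motif (GTAAACA), the TEAD motif (GGAATG) or the AP-1 motif (TGANTCA). Adjoining or overlapping matches run into 1 stretch of capitals.
Ogn: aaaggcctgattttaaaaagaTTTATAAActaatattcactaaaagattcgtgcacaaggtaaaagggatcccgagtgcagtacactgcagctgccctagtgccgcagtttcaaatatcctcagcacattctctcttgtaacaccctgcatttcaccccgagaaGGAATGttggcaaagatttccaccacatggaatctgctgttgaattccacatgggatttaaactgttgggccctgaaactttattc
Fmod: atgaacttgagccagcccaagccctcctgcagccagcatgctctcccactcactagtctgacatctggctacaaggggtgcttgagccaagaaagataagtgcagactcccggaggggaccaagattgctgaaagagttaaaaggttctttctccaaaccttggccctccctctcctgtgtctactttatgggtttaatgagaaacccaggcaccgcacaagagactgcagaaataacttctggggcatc
Bgn: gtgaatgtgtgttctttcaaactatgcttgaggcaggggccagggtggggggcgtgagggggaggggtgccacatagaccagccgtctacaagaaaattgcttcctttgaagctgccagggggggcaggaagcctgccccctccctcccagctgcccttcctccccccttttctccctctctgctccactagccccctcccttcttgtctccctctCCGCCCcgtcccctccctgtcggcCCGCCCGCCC
The Ogn stretch had 42% G and C and held a TATA box, found in 12.4% of the 32851 promoters of the same length, and a TEAD motif, found in 12.6%. The Fmod stretch had 51.2% G and C and none of these letters, and that of Bgn had 64.4% and GC boxes alone, found in 32.7% of all promoters. Ogn and Fmod therefore shared no motif of this list. Over the 7 genes with an entry, the TEAD motif was found in 3 (Ogn, Igf2 and Slc22a6), the CCAAT box (33.8% of all promoters) in 3 and the GC box in 3. Igf2 was searched over 4 start sites and the other 6 genes over 1 each, whereas the shares of all promoters are per start site. Neither the forkhead motif (3.17% of all promoters) nor the AP-1 motif (6.75%) was found in any of them. A match describes the letters and does not show a binding site.

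Some libraries stood apart from the rest. The intensity of WT_Y-371 (group and animal number) was the lowest of the 20 mice for 7 of the 9 genes and that of KO_A-42 was the lowest for the other 2. WT_AU-126 was the highest for 6. The library of WT_Y-374 had the highest values of all 3 liver genes that passed the filter, with an intensity of 2911.9 for albumin (Alb) against a median of 76.1 over the 20 mice, and the lowest values of 7 of 9 marker genes of hippocampal neurones. It was neither the lowest nor the highest mouse for any of the 9 genes. Counts that moved without one of these libraries are given with and without it.

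Ogn (osteoglycin, or mimecan) read 165.8, 57.1, 211.5 and 219.5 in WT_Y. In WT_AU it read 471.0, 296.4 and 282.5, and the lowest mouse of the group, WT_AU-57, lay at 7.80 on the log2 scale, just above the 7.78 of the highest WT_Y mouse. WT_AI mice read 193.6, 298.2, 327.6 and 247.6. In KO_Y the values were 129.9, 139.4, 143.3 and 182.1, and in KO_A 141.2, 90.7, 198.8 and 230.5. In this brightest probe set every WT_AU mouse lay above every WT_Y mouse, whereas WT_AI, KO_Y and KO_A each overlapped with WT_Y. The mean was 163 ± 37.4 (SEM, n = 4) in WT_Y, 292 ± 29.8 (SEM, n = 8) in WT_A, 149 ± 11.5 (SEM, n = 4) in KO_Y and 165 ± 31.0 (SEM, n = 4) in KO_A.

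Fmod (fibromodulin) spanned the widest range of the 9 genes. It read 279.4, 46.7, 283.0 and 346.7 in WT_Y, with WT_Y-371 far below the other three mice. Aged wild-type mice read 614.4, 326.3, 308.7 and 320.3 in WT_AU and 181.5, 433.5, 505.8 and 283.4 in WT_AI. The values in KO_Y were 200.2, 189.5, 183.4 and 282.5. KO_A divided into a low pair, at 109.3 and 95.9, and a high pair, at 279.3 and 297.2. Within each of the contrasts tested the groups overlapped.

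Dcn (decorin), which also binds TGF-β, read 962.0, 826.3, 1390.2 and 1124.8 in WT_Y. The aged wild-type values were 2044.7, 1282.6, 1305.4 and 1260.5 in WT_AU and 1167.7, 1564.0, 1510.1 and 1030.2 in WT_AI. KO_Y mice read 1116.3, 1176.7, 897.3 and 1346.5. The KO_A mice read 1267.0, 306.1, 967.4 and 1043.5, and KO_A-42 was the lowest of all 20 mice by a wide margin. Groups overlapped in every contrast tested.

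Bgn (biglycan) read 190.0, 103.7, 175.7 and 157.4 in WT_Y, and 249.9, 210.5, 174.4 and 171.2 in WT_AU. WT_AI mice read 150.2, 230.1, 219.8 and 159.1. The Hsd11b1-/- mice spanned a narrower range, with 160.2, 155.5, 141.5 and 154.4 in KO_Y and 123.5, 135.7, 144.8 and 162.7 in KO_A. KO_A overlapped with the lower part of WT_A.

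Lum (lumican), a near neighbour of Dcn in the genome, lay close to the filter, with 6 mice at 100 or more. It read 117.4, 42.2, 117.5 and 49.8 in WT_Y, so that the young wild-type group alone spanned most of the range of the 20 mice. WT_AU and WT_AI together ranged from 79.1 to 124.1, KO_Y from 64.9 to 97.4 and KO_A from 42.6 to 92.8.

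Foxc1, a forkhead transcription factor that is required for the meninges to form, reached 100 in 2 mice only. It read 91.8, 31.3, 68.1 and 70.5 in WT_Y, and the aged wild-type mice ranged from 66.4 to 123.8. KO_Y ranged from 60.9 to 73.4 and KO_A from 63.1 to 93.7. Islr, a secreted protein with leucine-rich repeats that marks mesenchymal stromal cells, read 202.6, 94.6, 186.1 and 142.1 in WT_Y and from 139.8 to 247.2 in WT_A. Its values in KO_A were 101.8, 126.3, 204.4 and 239.9, a low pair and a high pair made of the same mice as for Fmod. For both genes the groups overlapped in the contrasts tested.

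Igf2, an imprinted growth factor that the adult brain makes mainly in the leptomeninges and the choroid plexus, read 961.3, 280.2, 953.2 and 1128.6 in WT_Y. WT_AU mice read 921.7, 762.4, 592.3 and 732.2 and WT_AI mice 470.3, 1139.9, 717.0 and 777.2. In KO_Y the values were 474.5, 763.0, 370.0 and 623.9, and in KO_A 360.2, 492.6, 796.4 and 939.6. All groups overlapped, and WT_Y-371 was again the lowest mouse. Slc22a6, an organic anion transporter, was dim in every mouse, from 36.5 in KO_A-42 to 86.9 in WT_AI-49.

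**Figure D1:**
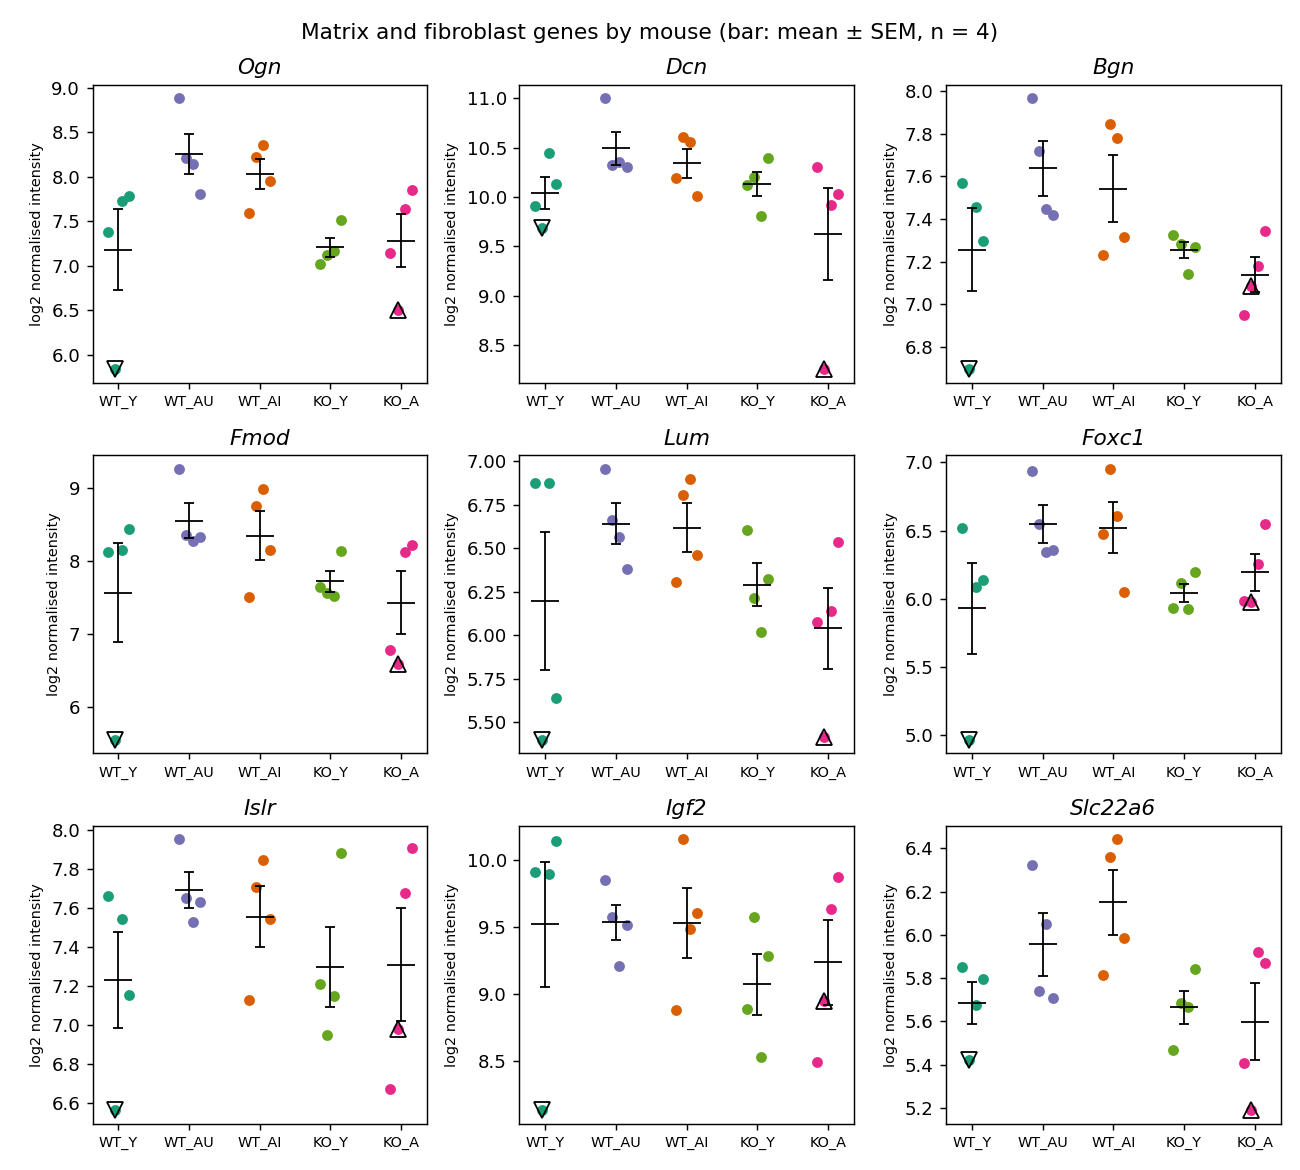
Log2 normalised chip intensity of the 9 genes in each mouse of the 5 groups (4 points per group, horizontal bar and error bar for the mean ± SEM). The open downward triangle marks WT_Y-371, the lowest mouse for 7 of 9 genes, and the open upward triangle KO_A-42, which lay far below the other mice for Dcn.

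The age effect in wild-type mice asked whether these transcripts differ between young and aged hippocampus. All 8 genes that passed the filter were higher in mean in WT_A than in WT_Y, with a median log2 fold change of 0.41 against -0.01 over all 16995 probe sets, of which 46.4% were above 0. None of the 8 passed an adjusted p of 0.05 in limma, where 0.594% of all probe sets did. The largest difference was that of Ogn (log2 fold change 0.97 ± 0.31 SE, limma adjusted p = 0.326), and all 8 WT_A mice lay above the WT_Y mean. A two-sided exact permutation test of Ogn gave p = 0.0162, unadjusted, where 4.88% of all probe sets passed in this direction. Fmod followed (0.89 ± 0.45 SE, limma adjusted p = 0.747), then Foxc1 (0.61 ± 0.22 SE, limma adjusted p = 0.417), and Igf2 had the smallest difference (0.01 ± 0.33 SE). At an unadjusted p under 0.05, limma passed 3 of the 8 (Ogn, Foxc1 and Bgn) as higher, where it passed 3.88% of all probe sets. The 8 genes were read in the same mice and varied together. Counts of genes or of directions, here and in the other comparisons, are therefore not counts of independent results. Foxc1 passed the filter only through 2 aged wild-type mice. Its place in this count and among the 8 higher genes therefore carries no weight. With a filter of 4 arrays it dropped out and 2 of 7 genes passed. The count ranged from 1 to 6 of 8 when each mouse was left out in turn. It was 2 without WT_AU-126 and 4 without KO_A-42. The p-values here measure the spread between the mice of a group.

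The size of the age effect depended on WT_Y-371. Without this mouse the median of the 8 genes was 0.19, the difference of Fmod was 0.21, that of Ogn was 0.52 and that of Igf2 turned to -0.45, and Ogn alone passed at an unadjusted p under 0.05. Without WT_AU-126 the median was 0.36, and 7 of 8 genes were above 0. Without WT_Y-374, the mouse with the liver transcripts, the median was 0.39 and the difference of Ogn was 1.17. Ogn was the single gene to be called in any alternative of this comparison. It passed when arrays were weighted by their quality (1.36, limma adjusted p = 0.0204), where 1.55% of all probe sets passed, and when the mean of the leptomeningeal markers was a covariate (0.89, limma adjusted p = 0.0332), where 0.688% did.

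The groups of Ogn did not overlap between WT_AU and WT_Y, with WT_AU above, which held for 2.53% of all probe sets and, of the 63 single-gene comparisons made by the exact permutation test, for this one alone. Its p there was 0.0286 by the two-sided exact permutation test, the smallest that 4 mice against 4 can give. Against WT_Y the difference of Ogn was 1.08 in WT_AU and 0.85 in WT_AI, both on the log2 scale. These values are those of the brightest probe set. In the second probe set of Ogn the groups overlapped, since WT_AU-57 read 148.8 and WT_Y-374 read 173.6.

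The age effect in Hsd11b1-/- mice had no common direction. Of the 8 genes, 4 were above 0 and 4 below 0 in KO_A against KO_Y, with a median log2 fold change of -0.05 against 0.02 over all probe sets, of which 56.4% were above 0. No gene passed in limma, where 2.41% of all probe sets did, and none passed at an unadjusted p under 0.05, where 20.9% did. Dcn had the largest difference (-0.50 ± 0.32 SE, limma adjusted p = 0.366), which was -0.05 without KO_A-42. The age effect of Ogn was 0.08 ± 0.36 SE and that of Fmod -0.29 ± 0.52 SE.

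**Figure D2:**
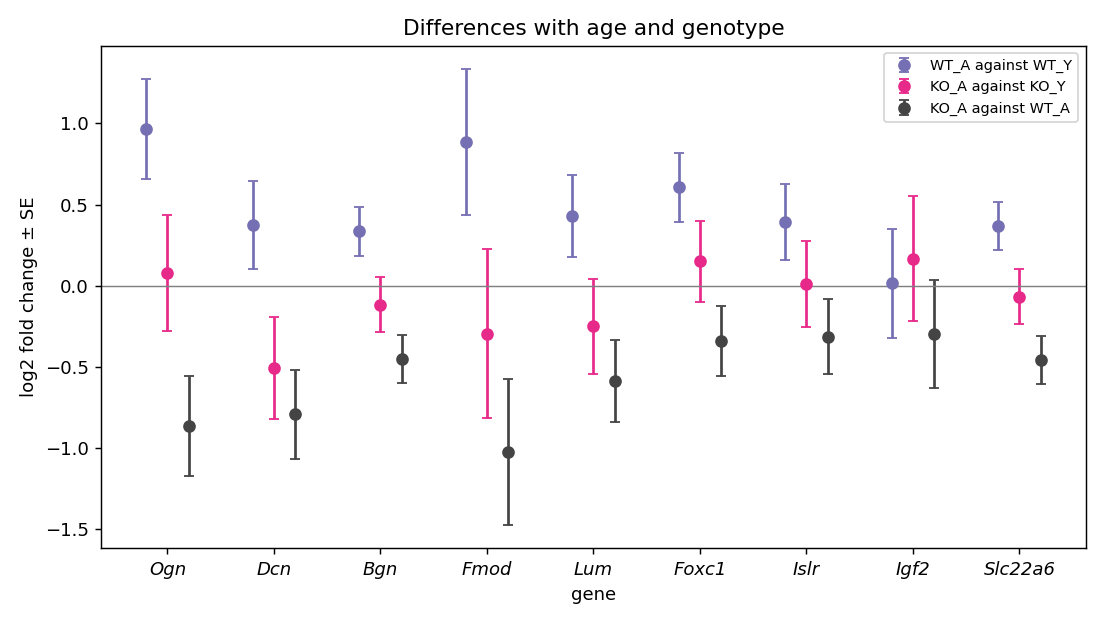
Log2 fold change ± SE (vertical axis) of the 9 genes in 3 comparisons, fitted with limma in the 5 groups. Slc22a6, which did not pass the filter, is shown from the fit of all probe sets. The 8 other genes lie above 0 in WT_A against WT_Y and below 0 in KO_A against WT_A, and the 2 comparisons share the WT_A mice.

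Whether the age effect itself differed by genotype was tested directly (age effect in Hsd11b1-/- minus that in wild-type mice). It was below 0 for 7 of 8 genes, with a median of -0.57 against 0.03 over all probe sets, where 57.5% lay above 0. Foxc1, which passed the filter only through aged wild-type mice, carries no weight among these 7. No gene passed in limma (0.0471% of all probe sets did). Dcn alone passed at an unadjusted p under 0.05, below 0 (-0.88 ± 0.42 SE, limma adjusted p = 0.478), where 2.28% of all probe sets did in this direction. The largest difference was that of Fmod (-1.18 ± 0.69 SE, limma adjusted p = 0.532). Without WT_Y-371 the median was -0.34 and without KO_A-42 it was -0.43. Without both mice it was -0.19. Without WT_Y-374 all 8 genes were below 0, with a median of -0.51. The count at an unadjusted p ranged from 0 to 4 when each mouse was left out in turn. It was 0 without WT_AU-126, WT_Y-371 or KO_A-42. It was also 0 without WT_AU-23, WT_AU-26, WT_AI-21, WT_AI-49, KO_Y-575, KO_Y-578 or KO_Y-585.

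In aged mice all 8 genes were lower in mean in KO_A than in WT_A. The median log2 fold change was -0.52 against 0.03 over all probe sets, of which 60.1% were above 0. The place of Foxc1 among the 8 carries no weight, since it passed the filter only through 2 aged wild-type mice. No gene passed in limma, where 0.0294% of all probe sets did, and the lowest adjusted p was 0.239 for Bgn (-0.45 ± 0.15 SE). At an unadjusted p under 0.05, limma passed 5 of the 8 genes as lower, where it passed 3.4% of all probe sets. Since the genes varied together between mice, these are not 5 independent results. These were the 5 proteoglycans, with differences of -1.03 ± 0.45 SE for Fmod, -0.86 ± 0.31 SE for Ogn, -0.79 ± 0.27 SE for Dcn, -0.59 ± 0.25 SE for Lum and -0.45 ± 0.15 SE for Bgn. All 4 KO_A mice lay below the WT_A mean for each of the 5. The two-sided exact permutation test gave unadjusted p = 0.0121 for Bgn, 0.0162 for Lum, 0.0202 for Ogn and 0.0364 for Dcn and Fmod, where 2.97% of all probe sets passed as lower. Foxc1 (-0.34), Islr (-0.31) and Igf2 (-0.30) were within their spread between mice.

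This comparison shares the WT_A mice with the age effect in wild-type mice, so that the values are not independent of it. Leaving out WT_Y-371 changed no difference here, but the estimate of the spread changed, and 6 of 8 genes then passed at an unadjusted p under 0.05. Without KO_A-42 the median was -0.36 and the difference of Dcn was -0.33, and Bgn alone passed at an unadjusted p under 0.05. Without WT_AU-126, or without WT_AI-49, 3 genes passed at that level (Ogn, Dcn and Bgn), and with array weights 1 did (Dcn). Without KO_A-41, 3 passed at that level, and the difference of Dcn was -1.02 with a limma adjusted p of 0.0369, in a fit that called 8.31% of all probe sets, so that 1 of 8 genes was near that share. Slc22a6, from the fit of all probe sets, was 0.37 ± 0.15 SE higher in WT_A than in WT_Y and differed by -0.46 ± 0.15 SE in KO_A against WT_A, with limma adjusted p = 0.533 and 0.333.

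Contrasts of genotype in young mice and of memory status were small. In KO_Y against WT_Y, 6 of 8 genes were above 0 (48.3% of all probe sets were) with a median of 0.08, the largest difference was that of Igf2 (-0.45 ± 0.38 SE), and no gene passed in limma at an adjusted p, where 0.129% of all probe sets did, or at an unadjusted p under 0.05, where 3.71% did. The directions rested on WT_Y-371. Without this mouse all 8 genes were below 0, with a median of -0.20, and Igf2 alone passed at an unadjusted p under 0.05 (-0.91 ± 0.31 SE, limma adjusted p = 0.725). In WT_AI against WT_AU all 8 genes were below 0, from -0.23 for Ogn to -0.01 for Igf2, while 45.7% of all probe sets were above 0. This common direction rested on single mice, since 6 of 8 genes were above 0 without WT_AU-126 (median 0.03) and 5 of 8 without WT_AI-14 (median 0.01). None passed in limma at an adjusted p, where 0 of 16995 probe sets passed, or at an unadjusted p, where 0.883% did. The memory status of aged wild-type mice therefore came with no detectable difference in these genes among 4 mice per group.

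The genes varied between the mice of a group more than most transcripts. The SD within groups, on the log2 scale, was 0.82 for Fmod, 0.60 for Igf2, 0.56 for Ogn and 0.49 for Dcn, and 0.26 for Bgn, against a median of 0.12 over the probe sets kept. The SD of each of the 9 genes exceeded that of 95.1% to 99.5% of those probe sets. A low mouse carried much of this spread. WT_Y-371 gave 40.8% of the squared deviations of Fmod and 38.7% of those of Ogn, and KO_A-42 gave 51.2% of those of Dcn.

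The deviations ran in parallel across genes. WT_Y-371 lay below its group mean for 9 of 9 genes, by 0.93 on average on the log2 scale, with -2.02 for Fmod, -1.39 for Igf2 and -1.34 for Ogn. KO_A-42, WT_AI-14 and WT_AU-57 also lay below their group means for all 9. WT_AU-126, WT_AI-21, KO_Y-585, KO_A-222 and KO_A-223 lay below for none. Parallel shifts of this kind were present in each of the 5 groups.

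**Figure D3:**
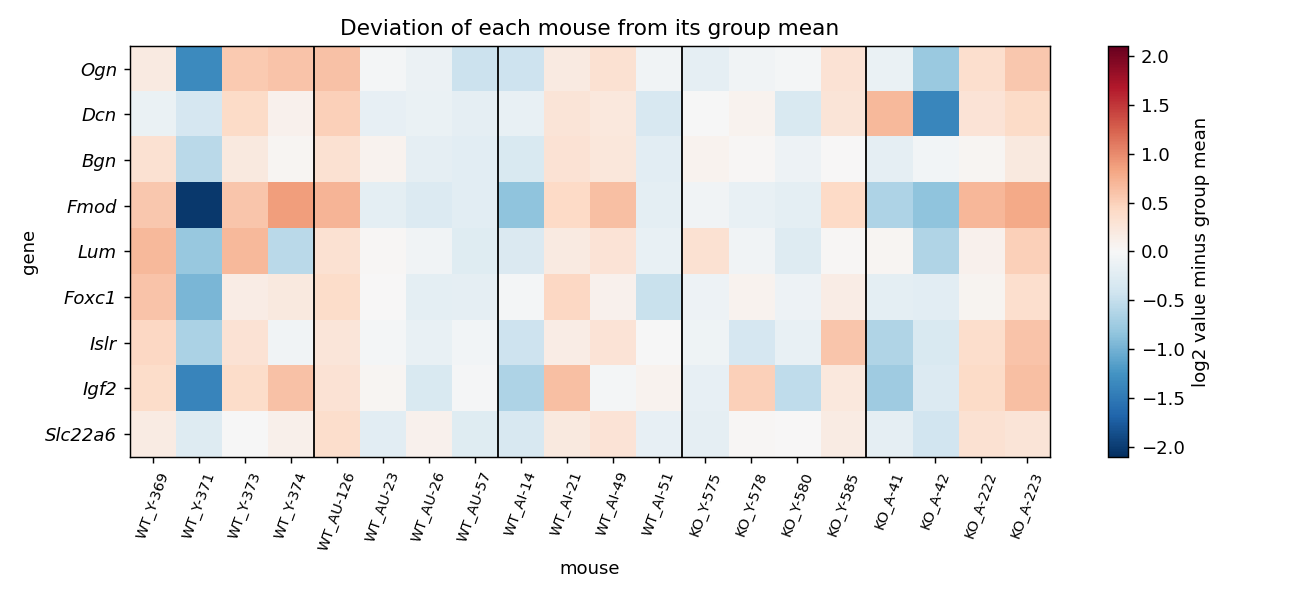
Log2 deviation of each of the 20 mice (columns, divided by group) from its group mean for the 9 genes (rows), blue below and red above the mean. Whole columns share a colour, as in WT_Y-371 (blue for 9 of 9 genes) and KO_A-223 (red for 9 of 9), and KO_A-41 is red for Dcn while most of its column is blue.

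With group means subtracted, all 36 pairs of the 9 genes had a Pearson correlation above 0 over the 20 mice, with a median of 0.72. These correlations are given as a description, since the genes were brought together with earlier results of these data known, and the points share the arrays and their normalisation. The highest was that of Ogn with Fmod (r = 0.956, Spearman's rho = 0.932) and the lowest that of Dcn with Igf2 (r = 0.360, rho = 0.487). Leaving out, for each pair, the 2 mice with the most extreme values of the first gene, r lay between 0.334 and 0.916 and was at least 0.5 in 33 pairs. A first principal component held 74.2% of the variance of the scaled genes and the second 9.54%. The median r was 0.85 in the 8 WT_A mice alone and 0.75 in the 8 Hsd11b1-/- mice alone. Without WT_Y-371 and KO_A-42 it was 0.62.

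Dcn was the gene least coupled to the others, with a median r of 0.50 against 0.68 to 0.84 for each of the other 8. KO_A-41 was its highest mouse relative to its group (0.68 above the mean) although this mouse lay below its group mean for 7 of the 9 genes. Lum and Dcn, which are adjacent in the genome, had an r of 0.60, below the median of all pairs.

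**Figure D4:**
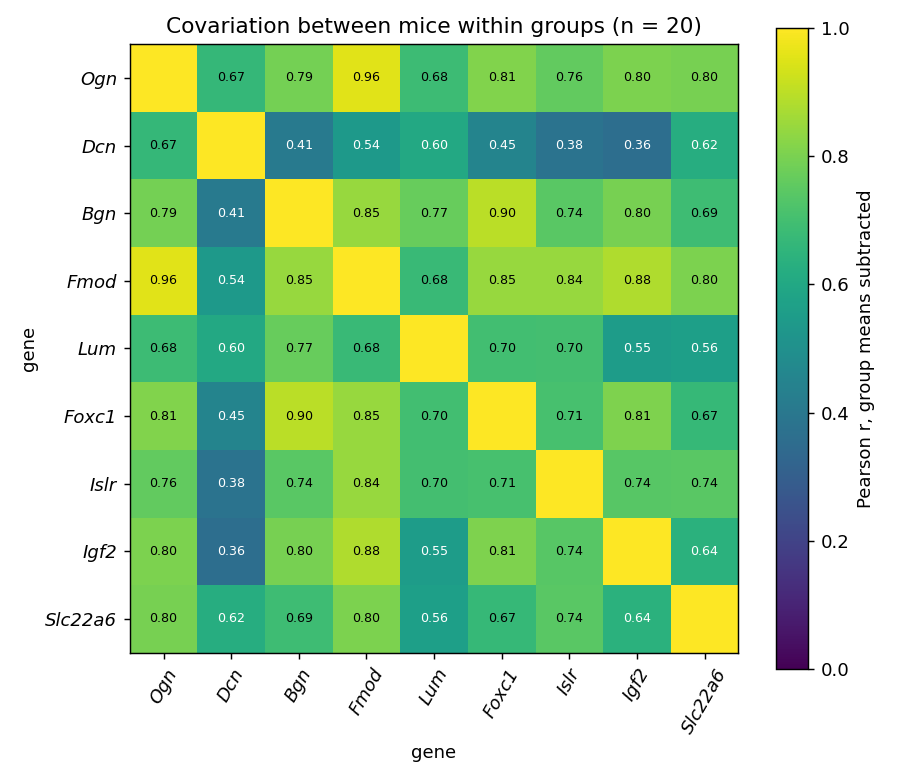
Pearson r between each pair of the 9 genes over 20 mice after subtraction of group means (colour scale from 0 to 1, value printed in each cell). All 36 values are above 0, the brightest cell is Ogn with Fmod, and the row of Dcn is the darkest.

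Most repeated probe sets of a gene varied in parallel within groups. Within groups the second probe set of Ogn had an r of 0.983 with the first, those of Bgn 0.876 and 0.931, and the 5 others of Fmod from 0.942 to 0.973. Of those of Fmod, 1 did not pass the filter (mean 25.9, r = 0.962). The second probe set of Foxc1 (mean 57.8) did not pass either and had an r of 0.826. The second probe sets of Dcn (r = 0.424), Igf2 (r = 0.274) and Slc22a6 (r = 0.626) had means of 15.9, 17.4 and 16.1. They did not pass the filter and could not serve as a check. Group differences of the other kept probe sets of Ogn, Bgn and Fmod varied in size. In WT_A against WT_Y they were 0.64 for Ogn, 0.41 and 0.11 for Bgn and 0.44 to 0.64 for Fmod. In KO_A against WT_A they were, in the same order, -0.74, -0.46 and -0.23, and -0.60 to -0.84. In KO_Y against WT_Y the second probe set of Ogn gave -0.26 where the first gave 0.03. The share of sequence between the probes of the Fmod probe sets was not examined.

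Markers that are not among the 9 genes were used to ask how far the genes follow the amount of leptomeningeal tissue. Of a list of 13 leptomeningeal fibroblast markers, 7 passed the filter (Col1a2, Slc6a20a, Slc13a4, Slc47a1, Slc6a13, Aldh1a2 and Zic1). The 6 others were dim. The fibrillar collagen genes Col1a1 and Col3a1 stayed below 100, at 33.4 to 43.1 and 19.7 to 73.2. So did Crabp2 (28.0 to 94.5), Foxc2 (20.3 to 60.1) and Tbx18 (30.0 to 80.4), and Foxd1 reached 100 in 1 mouse. The study itself singled out Aldh1a2 and Slc6a13 in these samples, so that they are not independent of the comparisons. The mean log2 level of the 7 markers ranged from 6.81 to 8.05 in WT_Y, from 7.48 to 8.18 in WT_AU, from 7.06 to 8.02 in WT_AI, from 7.05 to 7.67 in KO_Y and from 6.62 to 7.96 in KO_A. The lowest WT_Y mouse on this scale was again WT_Y-371.

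Within groups, 7 of the 9 genes were correlated with the leptomeningeal mean beyond an adjusted p of 0.05 by a permutation test over 45 relations (9 genes and 5 marker lists, Benjamini-Hochberg). The share of all probe sets that follow these marker means was not computed, so that this count is a description alone. Fmod had the highest (r = 0.913, rho = 0.932, permutation p = 8e-05 and 3e-05, adjusted p = 0.00169 and 0.00135), and r was 0.920 without WT_Y-371 and KO_A-41, the pair of mice lying farthest from the marker mean's median. Islr (r = 0.895), Igf2 (0.889), Bgn (0.810), Ogn (0.802), Slc22a6 (0.795) and Foxc1 (0.760) followed. Lum (r = 0.538, rho = 0.576) and Dcn (r = 0.320, rho = 0.561) did not pass, with adjusted permutation p = 0.176 and 0.623 for r. For Dcn, r was 0.587 without the same 2 mice. The leptomeningeal mean held 83.4% of the variance of Fmod within groups and 10.3% of that of Dcn.

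The 7 leptomeningeal markers did not share 1 direction. In WT_A against WT_Y, 4 were above 0 and 3 below (median 0.05). In KO_A against WT_A, 2 were above 0 and 5 below (median -0.41). Zic1, a transcription factor gene, was among those that moved opposite to the 8 genes. It was lower in mean in WT_A than in WT_Y (-1.35, limma adjusted p = 0.372) and higher in KO_A than in WT_A (0.53). A list without Zic1, chosen after seeing the data, gave higher correlations, with r = 0.969 for Fmod, 0.900 for Ogn, 0.682 for Lum and 0.475 for Dcn. With the planned list of 7 markers as a covariate, the median difference was 0.37 in WT_A against WT_Y and -0.37 in KO_A against WT_A. For the difference between the age effects it was then -0.59. With the list without Zic1 as a covariate, the median was 0.23 in WT_A against WT_Y, where Ogn passed in limma (0.66, adjusted p = 0.0444, with 0.635% of all probe sets called). It was -0.29 in KO_A against WT_A, where no gene passed, and -0.39 for the difference between the age effects.

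When the leptomeningeal mean was regressed out, the median r of the 36 pairs went from 0.72 to 0.35, and to 0.13 with the list without Zic1. Regressing out the choroid plexus mean left it at 0.72. The proportion of leptomeninges in each dissected hippocampus was not measured.

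The choroid plexus, the epithelium that makes cerebrospinal fluid, lies beside the hippocampus and can be taken with it. Its 12 markers that passed the filter were all lower in mean in WT_A than in WT_Y (median -1.11) and all higher in KO_A than in WT_A (median 0.66), again opposite to the 9 genes, and none passed in limma. Igf2 was the gene among the 9 that followed them (r = 0.800, rho = 0.792, adjusted permutation p = 0.00525 and 0.00288, and r = 0.699 without WT_Y-371 and KO_A-41). For the other 8, r lay between 0.016 and 0.496 and none passed. The leptomeningeal and choroid plexus means held 79.0% and 63.9% of the variance of Igf2 within groups, and 90.9% together. The 2 marker means were themselves correlated within groups (r = 0.586, rho = 0.522, permutation p = 0.0184 and 0.0253), with r = 0.336 without WT_Y-371 and KO_A-41. With the choroid plexus mean as a covariate, the difference of Igf2 in WT_A against WT_Y was 0.43.

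**Figure D5:**
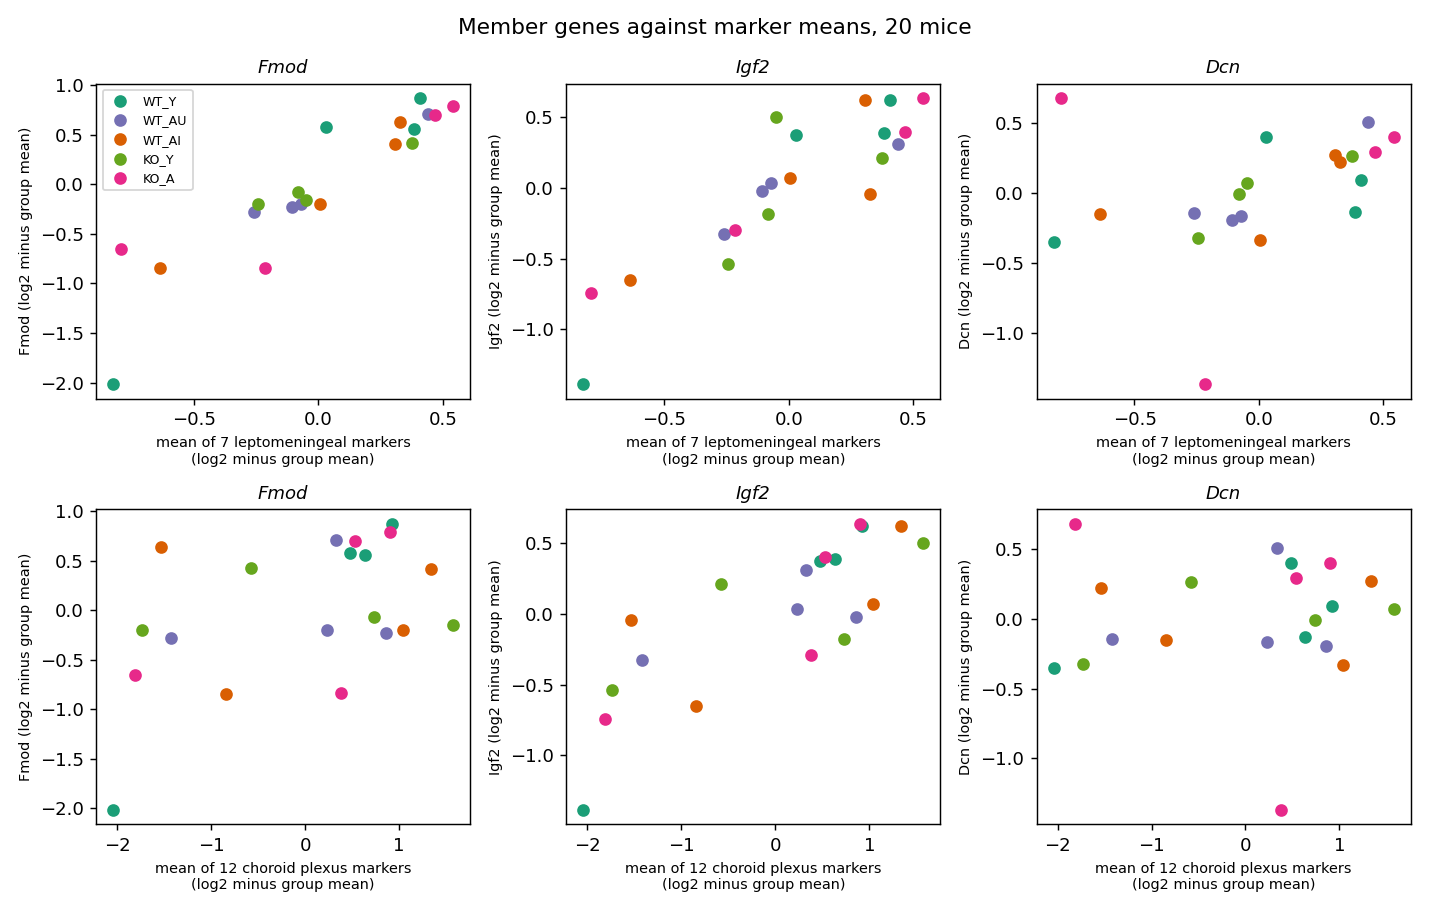
Log2 deviation from the group mean of Fmod, Igf2 and Dcn (vertical axes) against the mean deviation of 7 leptomeningeal markers (top) and 12 choroid plexus markers (bottom), 1 point per mouse, coloured by group. Fmod follows the leptomeningeal mean (r = 0.913) and Igf2 follows both means (r = 0.889 and 0.800). Dcn has 1 mouse, KO_A-42, far below the others, and its highest mouse, KO_A-41, is low on both marker means.

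Among vascular lists, Bgn was correlated with the mean of 6 mural cell markers (r = 0.748, rho = 0.726, adjusted permutation p = 0.0432 and 0.0470), and no gene was correlated with the endothelial mean, where r lay between -0.231 and 0.349. The smooth muscle actin gene Acta2, a mural marker, was the single called gene of the marker lists. It was lower in KO_A than in KO_Y (-1.02, limma adjusted p = 0.0176) and than in WT_A (-1.28, limma adjusted p = 0.0117). Of 7 border macrophage markers none passed the filter. Of the 9 genes none was correlated with the mean of 9 markers of hippocampal neurones at an adjusted permutation p of 0.05. There r lay between -0.312 (Igf2) and 0.422 (Lum). Without WT_Y-374 and WT_Y-373, the mice farthest from the median of that mean, r lay between -0.458 (Igf2) and -0.017 (Lum), with no test.

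Of 9883 genes compared, those whose profile within groups was most like the mean profile of the 8 genes that passed were Aldh1a2, which makes retinoic acid (r = 0.949), Col1a2, a chain of type I collagen (0.947), and Ptgds, which makes prostaglandin D2 (0.940). Tmem64 (0.935), the GABA transporter gene Slc6a13 (0.934), Slc6a20a (0.930), Mgp (0.898), Arhgap29 (0.897), the gap junction gene Gjb2 (0.888) and Ifitm2 (0.884) completed the first 10. Without WT_Y-371 and KO_A-42 these values lay between 0.789 and 0.927. They are over 20 mice and are given with no test.

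Gene by gene the nearest profiles differed. Ogn and Fmod were most like each other and Ptgds. The nearest genes to Igf2 were Slc13a4 (0.982), Bmp6 (0.981) and Igfbp2 (0.966), and the best placed of the other members stood at rank 26. Those nearest to Dcn were Igfbp3 (0.890), Cpne2 (0.880) and Nnat (0.873), and no other member was among its first 20. Foxc1 and Bgn were nearest to each other (0.897) apart from Arhgap29, Islr was nearest to Gjb2 (0.965), Lum to Aldh1a2 (0.804) and Slc22a6 to Ifitm1 (0.895).

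Other genes of the same functions were examined by list. Of 12 other small leucine-rich proteoglycans, 10 had a probe set and 2 passed the filter, Prelp and Podn, whose differences in WT_A against WT_Y were -0.05 and 0.11. Omd, which lies next to Ogn, had its highest value, 88.5, in WT_AU-126. Of 11 genes of the fibrous matrix that passed, 7 were above 0 in WT_A against WT_Y (median 0.12) and 8 below 0 in KO_A against WT_A (median -0.19), and none was called. The largest differences with age were those of Efemp1 (0.57) and Pcolce (-0.36). Among 11 meningeal transporters and enzymes, 9 were above 0 with age in wild-type mice (median 0.13) and 8 below 0 in KO_A against WT_A (median -0.27), again with none called. Aldh1a2 differed by 0.89 and -0.69, Slc6a13 by 0.64 and -0.67 and Slc6a20a by 0.63 and -0.68 in these 2 comparisons. The 2 meningeal transcription factor genes that passed, Zic1 and Zic2, were both below 0 with age.

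The insulin-like growth factor axis and the TGF-β ligands, receptors and binding proteins, some of which bind the products described here, had small differences. Of 10 genes of the first list, 7 were above 0 in WT_A against WT_Y (median 0.08) and none was called in any comparison. Igfbp2 differed by -0.30. Of 8 genes of the second, 6 were above 0 (median 0.03), and Tgfbr1, a TGF-β receptor, was called as higher in KO_A than in KO_Y (0.37, limma adjusted p = 0.0470), the sole call of the 6 functional lists.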

How the data were processed

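Per the labels and the methods, the authors extracted RNA from the hippocampus, hybridised it to Affymetrix 430 2.0 arrays and computed the deposited intensities by the robust multichip average with affy (the submitters' processing notes name R 2.8.0). This corrects background, equalises the distribution of intensity over arrays and summarises the probes of each set. A change shared by all transcripts is thereby hidden. The deposited intensity values were linear (median per array, 39.4 to 41.3) and were converted to log2.

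Of the 45037 probe sets, 34945 were listed with 1 gene symbol, 932 with several and 9160 with none. Probe sets kept by the filter (37.7%) entered a limma model (version 3.58.1, R 4.3.3) with the 5 groups and 1 estimate of the spread. Two-sided p-values of each contrast were adjusted over all 16995 of them (Benjamini-Hochberg). Single genes were also compared by exact permutation of mice. Correlations used group-centred values, with 100000 permutations within groups (Python 3.11.15, numpy 2.4.6, scipy 1.17.1). The limma script was tested on simulated data. The study also used rank products, which were not run here. Promoter sequences came from RefSeq.

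The members, gene lists and tests were chosen with earlier results of these data known. All 9 genes are named in each comparison where they matter, with the 10 genes most like their mean profile, up to 3 most like each gene, and, from the gene lists, calls and the genes with the smallest p.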

Additional observations from a re-analysis of the deposited data

Results flagged for a closer look

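Of 45 sets of 4 mice (9 genes in 5 groups), 3 had a mouse whose gap to the nearest other mouse, as a share of the range of the group, exceeded Dixon's critical value for 4 samples. Chance alone flags about 1 in 20 such sets. In WT_AU, WT_AU-126 stood above the other three mice for Dcn (0.943 of the range) and for Fmod (0.942). In KO_Y, KO_Y-585 stood above the others for Fmod (0.830). These shares were computed on linear intensity, where a low mouse stands out less than on the log2 scale used elsewhere. WT_Y-371 was not flagged on this scale, and the shares were not computed on log2 values.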

How the results depend on the processing

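Of 48 member values (8 genes in 6 comparisons), 24 kept their direction under every alternative and 24 turned in at least 1. The alternatives were no filter, a filter of 4 arrays, only the groups compared, array weights, centring of arrays on their medians, averaging the probe sets of a gene, each marker mean as a covariate, and leaving out each mouse. The marker mean without Zic1, the removal of 2 mice together and the use of 8 mice alone were chosen after seeing the data. The number of genes called, 0 in each comparison, was 1 in WT_A against WT_Y with array weights, with the leptomeningeal covariate and with that covariate without Zic1 (Ogn each time), and ranged from 0 to 1 in KO_A against WT_A when each mouse was left out (Dcn, without KO_A-41). Calls over all probe sets moved as well, from 0.594% to 1.55%, 0.688% and 0.635% in the first 3 of these fits and from 0.0294% to 8.31% without KO_A-41. The median r of pairs, 0.72, was 0.76 with probe sets averaged, 0.35 with the leptomeningeal mean regressed out, 0.13 with that mean without Zic1, 0.62 without WT_Y-371 and KO_A-42 and 0.85 in the 8 WT_A mice alone, and ranged from 0.63 to 0.79 when each mouse was left out. With the leptomeningeal marker mean as a covariate, the values turned to -0.076 for Igf2 in WT_A against WT_Y, -0.035 for Ogn and -0.084 for Islr in KO_A against KO_Y, 0.16 for Bgn in KO_Y against WT_Y, 0.052 for Igf2 in KO_A against WT_A and 0.00076 for Lum, 0.0042 for Foxc1 and 0.048 for Igf2 in WT_AI against WT_AU. With that mean taken without Zic1, the values turned to -0.32 for Igf2 in WT_A against WT_Y, 0.046 for Bgn in KO_Y against WT_Y, 0.016 for Islr and 0.16 for Igf2 in KO_A against WT_A and 0.035 for Lum, 0.035 for Foxc1 and 0.096 for Igf2 in WT_AI against WT_AU. Without WT_Y-371 and KO_A-42 together, the values turned to -0.45 for Igf2 in WT_A against WT_Y and -0.42 for Ogn, -0.030 for Dcn, -0.52 for Fmod, -0.17 for Lum, -0.21 for Foxc1 and -0.15 for Islr in KO_Y against WT_Y. With the choroid plexus mean as a covariate, the values turned to -0.077 for Ogn, -0.11 for Islr and -0.20 for Igf2 in KO_A against KO_Y, 0.15 for Bgn and 0.096 for Igf2 in KO_Y against WT_Y and -0.63 for Igf2 in the difference between the age effects. With array weights, the values turned to 0.19 for Fmod and 0.00079 for Lum in KO_A against KO_Y, 0.077 for Bgn in KO_Y against WT_Y, 0.075 for Igf2 in KO_A against WT_A and 0.019 for Lum, 0.053 for Foxc1 and 0.033 for Igf2 in WT_AI against WT_AU. With the probe sets of a gene averaged, the values turned to -0.12 for Ogn in KO_Y against WT_Y and -0.00049 for Igf2 in the difference between the age effects. Leaving out each mouse in turn, the values that crossed 0 ranged from -0.45 to 0.22 for Igf2 in WT_A against WT_Y. They ranged from -0.11 to 0.34 for Ogn, -0.19 to 0.22 for Islr and -0.046 to 0.42 for Igf2 in KO_A against KO_Y. They ranged from -0.42 to 0.23 for Ogn, -0.030 to 0.22 for Dcn, -0.19 to 0.10 for Bgn, -0.52 to 0.45 for Fmod, -0.17 to 0.32 for Lum, -0.21 to 0.31 for Foxc1 and -0.15 to 0.21 for Islr in KO_Y against WT_Y. They ranged from -0.24 to 0.017 for Dcn, -0.20 to 0.015 for Bgn, -0.41 to 0.078 for Fmod, -0.12 to 0.080 for Lum, -0.17 to 0.13 for Foxc1, -0.23 to 0.0076 for Islr and -0.22 to 0.21 for Igf2 in WT_AI against WT_AU. They ranged from -0.060 to 0.62 for Igf2 in the difference between the age effects. The cause of these changes was not tested. No paired analysis was possible because no animal number is shared between groups. Foxc1, Lum and Slc22a6 lie near or below the intensity used as the filter, where background weighs most. The dissection of each hippocampus was not recorded in the sources used here, and 4 mice per group limit what can be detected.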
